A study of Mus musculus with 8 samples.

Results

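The genes described here are 37 mouse genes of cholesterol and fatty acid metabolism, listed by symbol, and all 37 were found among the 47069 Ensembl genes present in both deposited expression tables. Of these, 15 encode enzymes of sterol synthesis, 4 control the SREBP transcription factors, 2 export sterol, 8 make, desaturate or elongate fatty acids, 2 take up or bind fatty acids and 6 belong to fatty acid oxidation. Transcripts were measured by RNA sequencing in 4 libraries of Ebi3-Treg (Thy1.1+ Blimp1-) and 4 libraries of Blimp1-Treg (Thy1.1- Blimp1+), regulatory T cells sorted from lymph nodes. Both populations came from 35EbiT × Blimp1-GFP KI mice on C57BL/6, 6 to 8 weeks old, so the reporter alleles were shared, and both were gated as CD25+ CD62L-low after bead enrichment of CD4 cells. The split therefore rests on the Thy1.1 and Blimp1-GFP reporters, and cells positive for both or for neither were not among these samples. Replicates 1 and 2 of each population stood in a first table and replicates 3 and 4 in a second. The labels do not say whether replicates are separate animals. The p-values therefore rest on the spread among these libraries, and that spread may be technical.

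Depth, read from the steps of the low values, in M fragments (M, mega) was 25.6, 20.2, 13.3 and 22.1 in Ebi3-Treg 1 to 4, and 31.3, 19.5, 19.2 and 14.7 in Blimp1-Treg 1 to 4. Foxp3, the transcription factor that defines regulatory T cells, averaged 292 ± 90.0 FPKM in Ebi3-Treg, with Blimp1-Treg at 313 ± 95.6 FPKM (SD, n = 4 each). All 6 T and Treg cell markers listed, Foxp3 among them, had log2 fold changes below 0, with a median of -0.19. None passed the limma test (1 at an unadjusted p under 0.05), and 2 were called lower by a fit that blocks on the replicate number. Their summed level was 2735, 3865, 2652 and 2978 FPKM in Ebi3-Treg 1 to 4, against 4170, 5894, 3489 and 3643 FPKM in Blimp1-Treg 1 to 4, lower in Ebi3-Treg in every number. Singly, only Ctla4 and Cd3e were lower in every number. FPKM is fragments per kilobase of transcript per 1 M fragments. Transcripts of other cells were present. The summed level of 8 B cell markers was 255, 49.4, 72.6 and 63.2 FPKM in Ebi3-Treg 1 to 4, against 176, 32.5, 38.3 and 35.9 FPKM in Blimp1-Treg 1 to 4, so both libraries numbered 1 stood out. The sum of 8 myeloid markers was 150.4, 119, 14.0 and 27.4 FPKM in Ebi3-Treg, against 38.9, 18.8, 9.05 and 19.4 FPKM in Blimp1-Treg, so Ebi3-Treg 1 and 2 stood out. In those 2 libraries most of the sum was Lyz2 and Fcer1g, while Itgam, Cd14 and Cd68 had lower means in Ebi3-Treg than in Blimp1-Treg. Fcrla and Itgam were each at 0 in 1 library, no other of these markers was at 0, and limma called none of the 5 B cell and 3 myeloid markers that were tested (0 and 2 at an unadjusted p under 0.05). With the block, 2 of the 5 and 2 of the 3 were called higher in Ebi3-Treg, and replicates 3 and 4 alone called 1 B cell marker higher. Summed over 4 CD8 T and NK cell markers, Ebi3-Treg 1 to 4 had 51.9, 25.2, 11.2 and 10.8 FPKM. Blimp1-Treg 1 to 4 had 32.2, 23.7, 9.70 and 10.9 FPKM. For 6 stroma, endothelium and fat markers the sums were 64.9, 30.6, 46.4 and 49.6 FPKM in Ebi3-Treg. In Blimp1-Treg they were 32.3, 16.8, 29.6 and 34.8 FPKM, mostly Pecam1 in both populations. Of each list 2 were tested and limma called none. The block and replicates 3 and 4 alone called Pecam1 higher in Ebi3-Treg. In these bulk samples fewer cells of a type and less RNA per cell cannot be told apart.

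Cells make cholesterol from acetyl-CoA through mevalonate, isoprenoids, squalene and lanosterol. When sterol in the endoplasmic reticulum is low, SCAP carries the SREBP precursors to the Golgi, where they are cut to release transcription factors. INSIG proteins hold SCAP back when sterol is plentiful. SREBP2 mainly drives genes of sterol synthesis and SREBP1 mainly genes of fatty acid synthesis, often together with the factor NF-Y, which binds CCAAT boxes. In mouse regulatory T cells the mevalonate pathway has been linked to proliferation and suppressive function, and fatty acid oxidation is one of their fuel routes.

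Promoter windows of 300 bases across the transcription start (RefSeq, GRCm38.p6) were present for 29 of the 37 genes, 35 windows in all. Fabp5, Fdps, Scd1, Sqle, Abcg1, Fads1, Fdft1 and Scd2 had none in that table. The letters CCAAT, read on both strands, were found in 37.4% of all 32851 windows. They occurred in 12 of 15 windows of sterol synthesis genes, 4 of 7 of SREBP control genes, 2 of 5 of fatty acid synthesis genes and 1 of 6 of oxidation genes. Some genes have several windows, and each of the 12 sterol synthesis genes in that table had CCAAT in at least 1. A sterol regulatory element written as TCACNCCAC, on either strand, was found in 1.24% of all windows and in 1 of the 35, that of Hmgcs1. The E box CACGTG, which SREBP1 can also bind, was in 7.15% of all windows and in 7 of the 35. Shown here are the windows of 3 enzymes of the mevalonate pathway, of which Mvk was higher in Ebi3-Treg while Mvd and Hmgcs1 had lower mean levels there. Capitals mark CCAAT or its reverse complement ATTGG and, in Hmgcs1, the sterol regulatory element, and each window is read 5′ to 3′ on the gene's own strand.
Mvk, chr5:114444019-114444318, plus strand: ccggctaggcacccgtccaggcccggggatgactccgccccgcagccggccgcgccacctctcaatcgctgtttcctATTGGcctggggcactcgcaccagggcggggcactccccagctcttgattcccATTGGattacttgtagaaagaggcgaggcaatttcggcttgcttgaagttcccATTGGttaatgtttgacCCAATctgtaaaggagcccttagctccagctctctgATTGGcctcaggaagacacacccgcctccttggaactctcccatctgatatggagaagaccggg
Mvd, chr8:122443373-122443672, minus strand: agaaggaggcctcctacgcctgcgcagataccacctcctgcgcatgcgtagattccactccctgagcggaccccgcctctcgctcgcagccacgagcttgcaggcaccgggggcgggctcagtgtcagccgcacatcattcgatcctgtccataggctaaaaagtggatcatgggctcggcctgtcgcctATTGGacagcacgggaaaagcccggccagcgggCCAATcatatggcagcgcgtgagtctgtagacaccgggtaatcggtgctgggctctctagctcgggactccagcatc
Hmgcs1, chr13:119690101-119690400, plus strand: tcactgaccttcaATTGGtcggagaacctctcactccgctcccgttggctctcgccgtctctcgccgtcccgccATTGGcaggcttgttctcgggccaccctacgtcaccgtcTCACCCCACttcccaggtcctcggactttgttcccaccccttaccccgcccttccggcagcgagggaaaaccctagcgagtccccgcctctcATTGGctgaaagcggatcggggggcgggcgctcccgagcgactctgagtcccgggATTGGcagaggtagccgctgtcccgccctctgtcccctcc
The Mvk window held 5 CCAAT matches, the Hmgcs1 window 4 and the Mvd window 2. A match of letters is a description of the window and not a binding site.

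Between the populations, Mvk, which phosphorylates mevalonate, was higher in Ebi3-Treg, and Fdft1, the squalene synthase that commits isoprenoids to sterols, was lower. They were the 2 called among the 34 genes that reached 1 FPKM in 4 or more libraries (limma on log2(FPKM + 1), Benjamini-Hochberg adjusted p under 0.05 over all genes tested), while 32 did not pass. Among all 12273 genes tested, 6.29% were called, 3.37% as higher and 2.93% as lower in Ebi3-Treg, and 1 gene in each direction of 34 is close to those shares. The 34 log2 fold changes had a median of -0.13, with 13 above 0 and 21 below, against a median of 0.07 over all genes tested. The direction was the same in both tables for 29 of the 34. Scd1, Fads2 and Cd36 were too low to be tested. A positive fold change means higher in Ebi3-Treg, and all are on log2(FPKM + 1), where the change of a gene with few reads is understated.

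**Figure D1:**
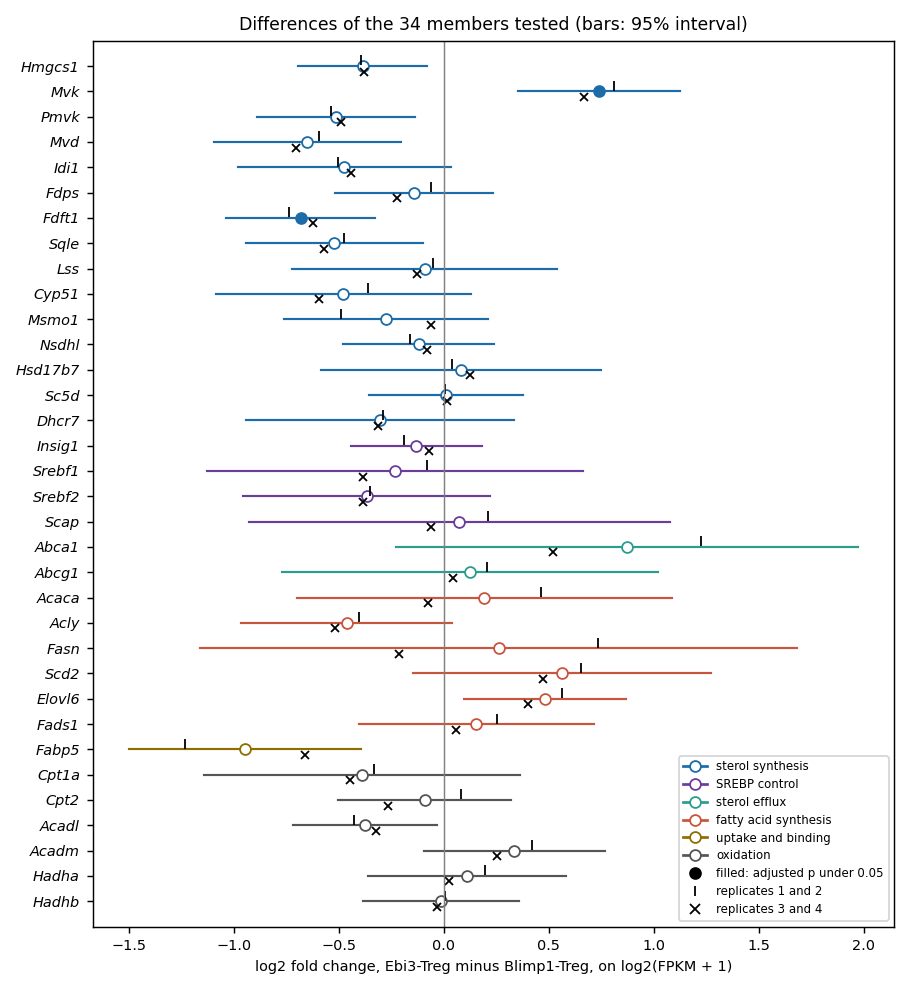
Log2 fold change (Ebi3-Treg minus Blimp1-Treg, on log2(FPKM + 1)) of each of the 34 genes tested, with its 95% interval, coloured by role. Filled points are the 2 genes past the adjusted threshold, and ticks and crosses give the difference within replicates 1 and 2 and within replicates 3 and 4. Most sterol synthesis genes lie left of 0 and Mvk lies right of it.

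Libraries of the same number deviated together, and with the replicate number as a block instead of the table, 17 of the 34 genes were called, 4 as higher (Mvk, Abca1, Scd2 and Acadm) and 13 as lower. The block called 22.4% of all genes tested, 13.5% as higher and 8.94% as lower. A block adjusted p is given below where it changed a gene's call. Libraries 3 and 4 correlated with the other number of their table as well as with their own, so the pairing rests on numbers 1 and 2. Without a model, both tables separated the populations without overlap, in the same direction, for 2 genes that were higher (Mvk and Elovl6; 11.7% of all genes tested) and 8 that were lower in Ebi3-Treg (7.30% of all genes tested). Counted by number, 17 of the 34 genes were lower in Ebi3-Treg in all 4 numbers, against 16.3% of all genes, and 7 were higher in all 4, against 28.0% of all genes.

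Mvk (ENSMUSG00000041939) stood at 9.84, 10.1, 6.89 and 6.33 FPKM in Ebi3-Treg 1 to 4, against 6.02, 4.55, 4.46 and 3.21 FPKM in Blimp1-Treg 1 to 4. Every Ebi3-Treg library lay above every Blimp1-Treg library, which held for no other of the 34 genes, and none lay wholly below. Over all 12273 genes tested, 814 separated all 8 libraries as higher in Ebi3-Treg and 552 as lower. So such a separation is not rare in these data. The log2 fold change of Mvk was 0.74 (SE 0.17, limma adjusted p = 0.0399), with means of 8.28 ± 1.94 and 4.56 ± 1.15 FPKM in Ebi3-Treg and Blimp1-Treg (SD, n = 4 each). Within tables the difference was 0.81 in replicates 1 and 2 and 0.67 in replicates 3 and 4. The call was lost on leaving out any single library, with limma adjusted p between 0.0695 and 0.157. It was lost too without the table term (adjusted p = 0.158) and with no filter on low values (adjusted p = 0.129).

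Fdft1 (ENSMUSG00000021273) was at 12.1, 15.1, 9.55 and 9.10 FPKM in Ebi3-Treg 1 to 4 and at 20.2, 26.7, 14.2 and 15.7 FPKM in Blimp1-Treg 1 to 4. Each table separated the populations, while Ebi3-Treg 2 lay above Blimp1-Treg 3 across tables. The log2 fold change was -0.68 (SE 0.15, limma adjusted p = 0.0395), with a mean of 11.5 ± 2.77 FPKM in Ebi3-Treg, while Blimp1-Treg averaged 19.2 ± 5.60 FPKM (SD, n = 4 each). It was -0.74 in replicates 1 and 2 and -0.62 in replicates 3 and 4. This call too was lost without any single library (limma adjusted p 0.0638 to 0.149), and with the libraries brought to a common median (adjusted p = 0.0938). Without the table term its limma adjusted p was 0.233, and with no filter on low values it was 0.131. In the reference annotation 18.3% of the exon length of Fdft1 overlaps Ctsb on the opposite strand. The kit is not said to mark strand, so reads of the shared stretch cannot be told apart. The same limit holds for Scap (13.2% of exon length), Hmgcs1 (12.1%) and Idi1 (9.2%), and for smaller shares of some other genes.

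Across the 15 sterol synthesis genes, all of them tested, 1 was called higher, 1 lower and 13 did not pass, and 12 of the 15 had a log2 fold change below 0. The median was -0.30 over both tables, -0.36 for replicates 1 and 2 alone and -0.31 for replicates 3 and 4 alone. Number by number, 12, 13, 12 and 13 of the 15 were lower in Ebi3-Treg for numbers 1 to 4. Summed over the 15, the level was 260.4, 295.8, 174 and 189 FPKM in Ebi3-Treg 1 to 4, against 332, 380.5, 214 and 237 FPKM in Blimp1-Treg 1 to 4. The sum was the lower one in Ebi3-Treg in every number and within each table.

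**Figure D2:**
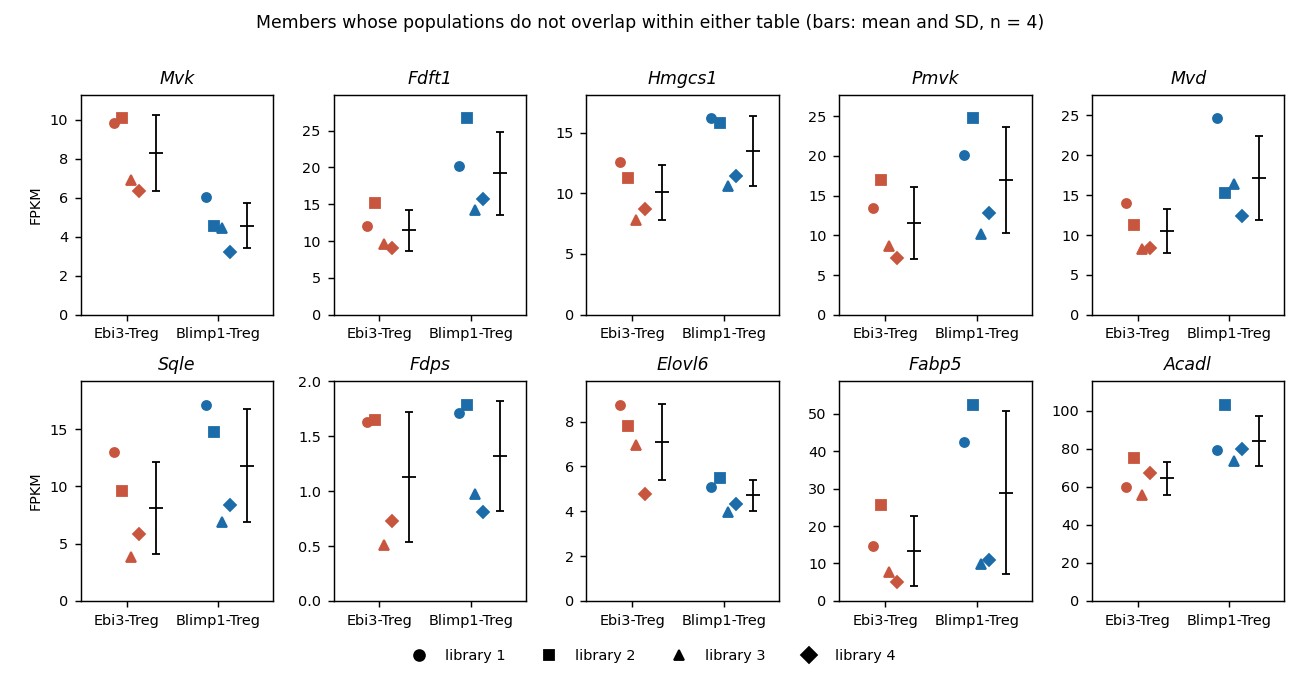
FPKM in each library for the 10 genes whose populations do not overlap within either table, with Ebi3-Treg left of Blimp1-Treg, mean and SD as bars (n = 4 each) and the marker shape giving the library number. Mvk separates all 8 libraries, and for the others the separation holds within each table, where libraries 1 and 2 share one and 3 and 4 the other.

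The early steps of the pathway gave the following levels. Hmgcs1 (ENSMUSG00000093930), the synthase that forms HMG-CoA, was at 12.6, 11.3, 7.77 and 8.67 FPKM in Ebi3-Treg and 16.2, 15.8, 10.6 and 11.4 FPKM in Blimp1-Treg. Its log2 fold change was -0.39 (SE 0.13, limma adjusted p = 0.157, and 0.0283 with the block). Within each table both Ebi3-Treg libraries lay below both Blimp1-Treg libraries. Pmvk (ENSMUSG00000027952), which phosphorylates mevalonate phosphate, had 13.4, 16.9, 8.67 and 7.10 FPKM in Ebi3-Treg, against 20.1, 24.7, 10.1 and 12.9 FPKM in Blimp1-Treg. Its log2 fold change was -0.51 (SE 0.16, limma adjusted p = 0.124, and 0.0230 with the block). The populations were again apart within each table, by less between libraries 3 than elsewhere.

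Mvd (ENSMUSG00000006517), the decarboxylase that makes isopentenyl diphosphate, had 14.0, 11.2, 8.26 and 8.41 FPKM in Ebi3-Treg and 24.6, 15.3, 16.4 and 12.3 FPKM in Blimp1-Treg. Only Ebi3-Treg 1 reached the range of Blimp1-Treg over all 8 libraries. The log2 fold change of Mvd was -0.65 (SE 0.19, limma adjusted p = 0.10, and 0.00980 with the block), and Mvd passed with the libraries brought to a common median and without Blimp1-Treg 2. Idi1, the isomerase that follows, stood at 22.7, 27.4, 9.09 and 13.7 FPKM in Ebi3-Treg, against 27.3, 46.9, 13.7 and 17.7 FPKM in Blimp1-Treg. Ebi3-Treg was lower within every number, but the populations overlapped within both tables (log2 fold change -0.47, SE 0.22, limma adjusted p = 0.307, and 0.0229 with the block). Fdps, which makes farnesyl diphosphate, was low at 1.63, 1.64, 0.511 and 0.732 FPKM in Ebi3-Treg and 1.71, 1.79, 0.974 and 0.811 FPKM in Blimp1-Treg. Those values stand for at least 8 to 49 reads in Ebi3-Treg and 14 to 63 in Blimp1-Treg, and 26.7% of its exon length is shared with the model Gm43738, so its level is uncertain.

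The later steps lead from squalene to cholesterol. Sqle (ENSMUSG00000022351), the squalene epoxidase, had 13.0, 9.64, 3.88 and 5.89 FPKM in Ebi3-Treg, against 17.1, 14.8, 6.90 and 8.39 FPKM in Blimp1-Treg. The Ebi3-Treg libraries lay below within each table (log2 fold change -0.52, SE 0.18, limma adjusted p = 0.163, and 0.0167 with the block). Cyp51, the lanosterol demethylase, had 36.4, 76.5, 19.5 and 22.5 FPKM in Ebi3-Treg and 51.7, 89.8, 31.9 and 32.3 FPKM in Blimp1-Treg. It was lower in Ebi3-Treg in every number, with both libraries numbered 2 high (log2 fold change -0.48, SE 0.26, limma adjusted p = 0.410, and 0.0138 with the block). Dhcr7, which takes the last step to cholesterol, was at 39.4, 20.7, 30.2 and 32.9 FPKM in Ebi3-Treg, against 51.1, 24.2, 35.2 and 44.2 FPKM in Blimp1-Treg. That difference was -0.30 on the log2 scale (limma adjusted p = 0.686, and 0.0399 with the block).

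The other enzymes of these steps had smaller differences. Lss, which closes the sterol rings, had a log2 fold change of -0.09, Msmo1 of -0.28, Nsdhl of -0.12, Hsd17b7 of 0.08 and Sc5d of 0.01, with limma adjusted p between 0.604 and 0.991. None of these 5 was called with the block over both tables. Msmo1 and Nsdhl were lower in Ebi3-Treg in all 4 numbers, and the difference of Msmo1 was -0.49 in replicates 1 and 2, against -0.06 in replicates 3 and 4. For all 5 the populations overlapped within at least 1 table.

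Proliferation genes also differed between the populations. Their summed level over 10 genes was 317, 225, 162 and 188 FPKM in Ebi3-Treg, against 479, 402, 356 and 421 FPKM in Blimp1-Treg, without overlap. Of the 10, 7 were called lower in Ebi3-Treg by limma, against 2.93% of all genes tested, and 3 did not pass. The median log2 fold change of the 10 was -1.44. The summed T and Treg cell markers were also lower in Ebi3-Treg in every number, mainly through Ctla4 and Cd3e. Cd4, Foxp3, Il2ra and Ikzf2 differed in direction between numbers. The part of the proliferation genes or of the T and Treg cell markers in the sterol gene levels was not tested.

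Among the genes that control SREBP, none of 4 passed the test. Srebf2, which encodes SREBP2, was at 38.4, 23.8, 26.8 and 32.7 FPKM in Ebi3-Treg, against 56.3, 26.8, 36.2 and 41.7 FPKM in Blimp1-Treg. It was lower in Ebi3-Treg in every number (log2 fold change -0.37, limma adjusted p = 0.551, and 0.0286 with the block). Srebf1, which encodes SREBP1, averaged 70.6 ± 23.3 FPKM in Ebi3-Treg and Blimp1-Treg averaged 86.6 ± 35.1 FPKM, for a log2 fold change of -0.23 (limma adjusted p = 0.863). Insig1, itself a target of SREBP2, averaged 32.0 ± 6.34 FPKM in Ebi3-Treg, with Blimp1-Treg at 35.4 ± 8.39 FPKM (log2 fold change -0.13, adjusted p = 0.733). Scap was at 76.7 ± 30.5 FPKM in Ebi3-Treg, with Blimp1-Treg at 74.6 ± 32.2 FPKM (SD, n = 4 each; log2 fold change 0.07, adjusted p = 0.969).

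The 2 sterol exporters had log2 fold changes above 0 in every number, and neither passed. Abca1, which loads cholesterol onto apolipoprotein A-I, stood at 14.5, 3.03, 23.8 and 13.6 FPKM in Ebi3-Treg, against 3.82, 1.38, 16.7 and 8.94 FPKM in Blimp1-Treg. Ebi3-Treg was higher in each number, while the level varied more between numbers than between populations (log2 fold change 0.87, SE 0.48, limma adjusted p = 0.406, and 0.0268 with the block). The difference was 1.22 on the log2 scale in replicates 1 and 2 and 0.52 in replicates 3 and 4. In replicates 1 and 2 the summed myeloid markers were also higher in Ebi3-Treg, mainly through Lyz2 and Fcer1g. Itgam, Cd14 and Cd68 had lower mean levels there in Ebi3-Treg. Lyz2, the most abundant of these markers, was at 99.1, 91.1, 8.00 and 20.4 FPKM in Ebi3-Treg and 29.9, 7.90, 3.74 and 8.44 FPKM in Blimp1-Treg. The part of myeloid transcripts in the Abca1 difference was not tested. Abcg1, which exports sterol to mature lipoprotein particles, averaged 36.8 ± 14.2 FPKM in Ebi3-Treg, with Blimp1-Treg at 33.7 ± 12.7 FPKM (SD, n = 4 each; limma adjusted p = 0.939).

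Of the 8 genes of fatty acid synthesis, 6 were tested and none passed, with a median log2 fold change of 0.23. That median was 0.51 in replicates 1 and 2 and -0.01 in replicates 3 and 4. Elovl6, which elongates palmitate, was at 8.76, 7.82, 6.97 and 4.79 FPKM in Ebi3-Treg, against 5.09, 5.49, 3.99 and 4.31 FPKM in Blimp1-Treg. Within each table the Ebi3-Treg libraries lay above (log2 fold change 0.48, SE 0.17, limma adjusted p = 0.159). Scd2, a stearoyl-CoA desaturase, was at 32.7, 14.0, 37.2 and 27.3 FPKM in Ebi3-Treg and 19.1, 9.22, 23.5 and 21.9 FPKM in Blimp1-Treg. It was higher in Ebi3-Treg in every number, with both libraries 2 low (log2 fold change 0.56, SE 0.31, limma adjusted p = 0.406, and 0.00989 with the block).

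Acly, which splits citrate into cytosolic acetyl-CoA for both pathways, pointed the other way. It stood at 142, 76.2, 136 and 137 FPKM in Ebi3-Treg, against 170.0, 112, 197 and 196 FPKM in Blimp1-Treg. Ebi3-Treg was lower in every number (log2 fold change -0.46, SE 0.22, limma adjusted p = 0.317, and 0.00843 with the block). Fasn, the fatty acid synthase, was at 71.5, 11.9, 56.0 and 54.7 FPKM in Ebi3-Treg and 36.8, 7.94, 57.2 and 72.3 FPKM in Blimp1-Treg. Its direction differed between the tables, at 0.73 in replicates 1 and 2 and -0.21 in replicates 3 and 4. Acaca, which makes malonyl-CoA, and Fads1, a fatty acid desaturase, had log2 fold changes of 0.19 and 0.15 (limma adjusted p = 0.892 and 0.853).

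Scd1 and Fads2 were too low to be tested. Scd1, another stearoyl-CoA desaturase, was at 4.98, 0.0512, 0 and 0 FPKM in Ebi3-Treg, against 3.65, 0.127, 0.0108 and 0.0281 FPKM in Blimp1-Treg. Only the libraries numbered 1 held it above 1 FPKM. The summed B cell markers were also highest in the same 2 libraries, and the relation of that sum to Scd1 was not tested. Fads2 ranged over 0.120 to 0.448 FPKM in Ebi3-Treg and 0 to 0.806 FPKM in Blimp1-Treg.

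Fabp5 (ENSMUSG00000027533), a fatty acid binding protein, had the widest difference of the 34 genes and missed the threshold. It stood at 14.7, 25.7, 7.78 and 4.93 FPKM in Ebi3-Treg, against 42.3, 52.4, 9.93 and 10.9 FPKM in Blimp1-Treg. Within each table the Ebi3-Treg libraries were lower, and the first table was higher than the second in both populations. The log2 fold change was -0.95 (SE 0.24, limma adjusted p = 0.0595, and 0.0111 with the block), and the difference within tables was -1.23 for replicates 1 and 2 and -0.66 for replicates 3 and 4. Cd36, a fatty acid transporter, was at 1.28, 1.03, 0.747 and 0.180 FPKM in Ebi3-Treg and 0.573, 0.613, 0.352 and 1.38 FPKM in Blimp1-Treg, too low to be tested.

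For fatty acid oxidation none of the 6 genes passed, and the median log2 fold change was -0.05. Acadl, the long-chain acyl-CoA dehydrogenase, was at 59.9, 75.0, 55.7 and 67.2 FPKM in Ebi3-Treg, against 79.4, 103, 73.5 and 80.2 FPKM in Blimp1-Treg. The populations were apart within each table (log2 fold change -0.38, SE 0.15, limma adjusted p = 0.215, and 0.0132 with the block). Acadm, the medium-chain enzyme, pointed the other way, at 47.4, 75.5, 55.4 and 53.4 FPKM in Ebi3-Treg and 38.4, 51.3, 51.1 and 40.6 FPKM in Blimp1-Treg. Ebi3-Treg was higher in every number (log2 fold change 0.34, limma adjusted p = 0.412, and 0.0415 with the block).

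Cpt1a, which admits long-chain fatty acids to mitochondria, had 19.1, 7.46, 23.9 and 28.4 FPKM in Ebi3-Treg, against 23.2, 10.2, 33.3 and 38.7 FPKM in Blimp1-Treg. It was lower in Ebi3-Treg in every number (log2 fold change -0.39, limma adjusted p = 0.645, and 0.020 with the block). Its inner-membrane partner Cpt2 differed by -0.09 on the log2 scale (limma adjusted p = 0.888). Hadha and Hadhb, the subunits of the mitochondrial trifunctional protein, differed by 0.11 and -0.01 on the log2 scale (limma adjusted p = 0.884 and 0.987). Hadhb averaged 151 ± 28.3 FPKM in Ebi3-Treg, with Blimp1-Treg at 152 ± 25.8 FPKM (SD, n = 4 each), and the promoter windows of this pair lie on opposite strands and share 228 bases.

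**Figure D3:**
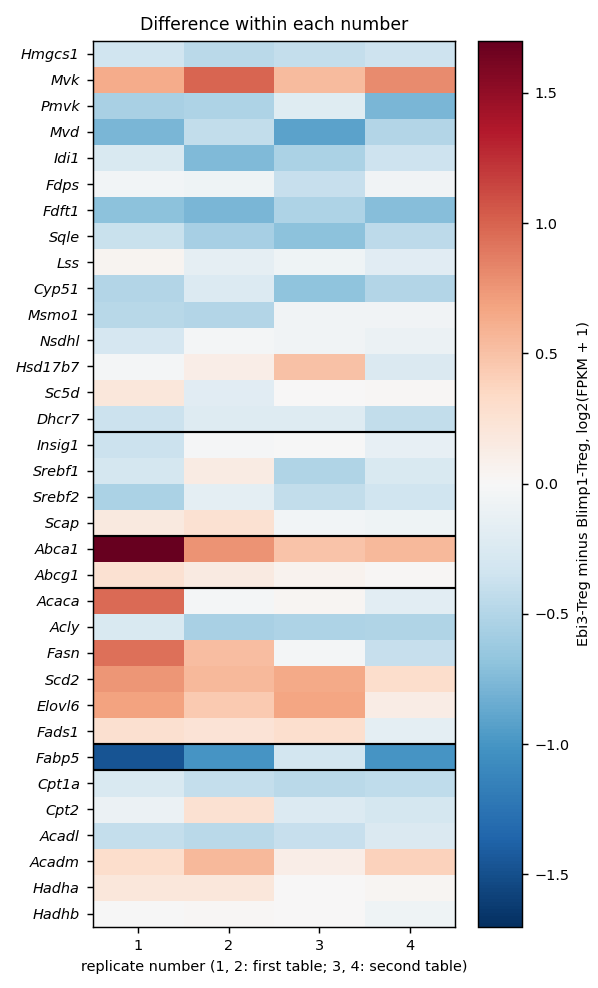
Difference in log2(FPKM + 1), Ebi3-Treg minus Blimp1-Treg, within each replicate number for the 34 genes tested, red where Ebi3-Treg was higher and blue where it was lower, with lines between the roles. The mevalonate and squalene enzymes other than Mvk are blue in most numbers, and Abca1, Scd2 and Elovl6 are red in all 4.

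Fitted alone, replicates 3 and 4 gave 2 calls, both lower in Ebi3-Treg, Cyp51 (limma adjusted p = 0.0381) and Acly (log2 fold change -0.52, adjusted p = 0.0143), where 11.0% of all genes tested were called. In replicates 1 and 2 alone limma called 0 of the 34 genes, 1 of which had an unadjusted p under 0.05, and 0 of all genes, 707 of which did. With the block that table gave 14 calls among the 34, where it called 23.3% of all genes, from 1 residual degree of freedom. A test of the difference between the tables called 0 of the 34 genes by limma, and 0 had an unadjusted p under 0.05. Over all 12273 genes tested limma called 0 too, with 203 at such a p, so the lack of calls is not particular to the 34. The block gave 0 calls among the 34, with 2 at such a p, and 13 calls over all genes. The differing directions of Fasn in the tables were not past the threshold in either fit.

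Beyond the 37 genes, 65 further genes of the same pathways were listed and 56 were tested, with 2 called higher, 1 lower and 53 not passing, and a median log2 fold change of 0.08. The 3 calls of 56 are near the 6.29% of all genes tested. Of 15 tested genes of sterol synthesis, transport and sensing none passed, and 4 were lower with the block, which called 8.94% of all genes as lower. The fatty acid and lipid synthesis list had 1 higher of 16, the uptake and storage list 1 lower of 7 and the oxidation list 1 higher of 18. Those 3 calls were larger in size than the calls of Mvk and Fdft1.

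Plin2, which coats lipid droplets, was at 23.5, 28.0, 19.5 and 22.2 FPKM in Ebi3-Treg, against 73.2, 75.4, 51.7 and 63.2 FPKM in Blimp1-Treg. The populations were far apart, and Plin2 fell by 1.46 on the log2 scale (SE 0.13, limma adjusted p = 0.00120). Dgat2, which takes the last step of triglyceride synthesis, was at 15.0, 25.1, 13.6 and 10.0 FPKM in Ebi3-Treg and 1.66, 4.21, 2.82 and 1.84 FPKM in Blimp1-Treg. All Ebi3-Treg libraries lay above, with a log2 fold change of 2.2 (SE 0.29, limma adjusted p = 0.00493). Decr1, a reductase needed to oxidise unsaturated fatty acids, had 28.5, 32.6, 23.6 and 27.2 FPKM in Ebi3-Treg, against 10.0, 15.4, 15.5 and 16.4 FPKM in Blimp1-Treg. It too was without overlap, with a log2 fold change of 0.93 (SE 0.19, limma adjusted p = 0.0302).

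The libraries numbered 2 stood apart from the other numbers in both populations for many of the 37 genes. Against the mean of libraries 1, 3 and 4 of the same population, 16 of the 34 genes were lower in library 2 of both populations and 17 were higher in both. By more than 1 on the log2 scale, 8 were lower in both. Over 12232 genes tested, 6545 were lower in both, 4155 higher in both and 1489 lower by more than 1 in both. The shared deviation of the libraries numbered 2 was therefore not particular to the 34 genes. Fasn differed by -2.25 in Ebi3-Treg and -2.61 in Blimp1-Treg, Abca1 by -2.14 in Ebi3-Treg and -1.99 in Blimp1-Treg, and Fabp5 by 1.52 in Ebi3-Treg and 1.58 in Blimp1-Treg. Across the 34 genes the deviation went with the length of the longest transcript, with a Spearman rho of -0.60 in Ebi3-Treg and -0.50 in Blimp1-Treg, given as a description since genes of a library share its preparation. Over 12232 genes tested the same rho was -0.44 in Ebi3-Treg and -0.38 in Blimp1-Treg. It also went with GC content, with a rho of -0.45 in Ebi3-Treg and -0.53 in Blimp1-Treg across the 34 genes, and of -0.16 in Ebi3-Treg and -0.30 in Blimp1-Treg over the 12232. Without both libraries numbered 2, limma called 9 of the 34 genes, 2 higher and 7 lower. There it called 16.0% of all 12273 genes, 1110 as higher and 852 as lower. Without both numbered 1 it called 6 of the 34, 1 higher and 5 lower. In number the 6 are near the share of all genes called there, 16.1%. Of all genes it called 1112 as higher and 858 as lower, so the split by direction differed. Mvk and Fdft1 were among the calls each time.

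**Figure D4:**
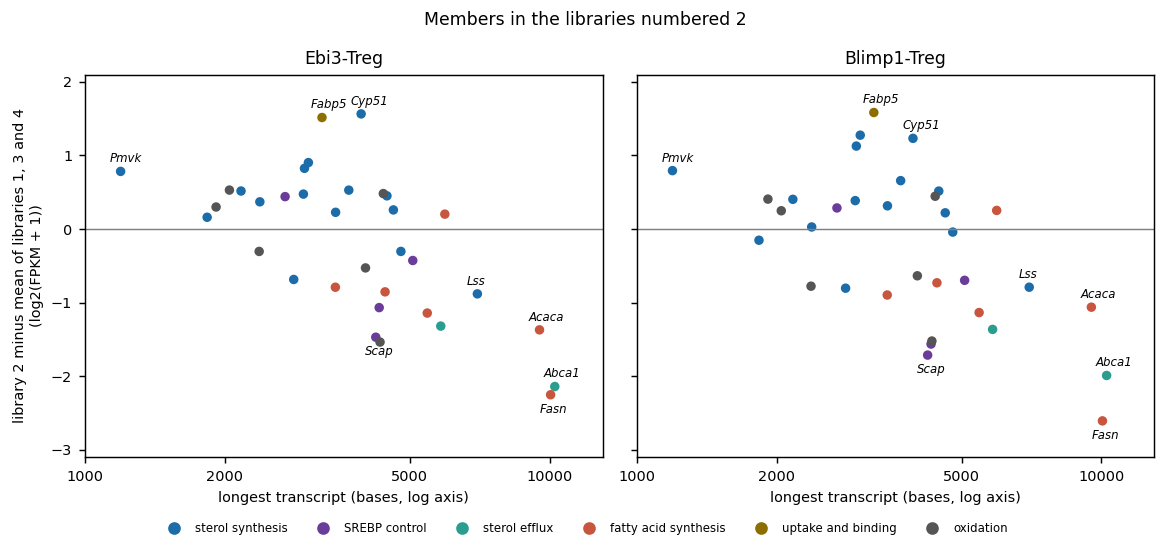
Deviation of library 2 from the mean of libraries 1, 3 and 4 of its population, on log2(FPKM + 1), against the length of the longest transcript in bases (log axis) for the 34 genes tested, with Ebi3-Treg left and Blimp1-Treg right. The longest transcripts, Fasn and Abca1, lie lowest in both populations.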

How the data were processed

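RNA of sorted cells was amplified with the SMART-Seq v4 low-input kit and sequenced, per the labels' protocols. The values are FPKM, deposited by the authors in 2 tables. Per the submitters' processing notes, HTSeq 0.6.1, TopHat2 2.0.12 and Bowtie2 2.2.3 were used with build mm9. No source used here gives the annotation, the counting mode or the step of each tool. Of the features, 640 and 612 had no Ensembl identifier and were not used, and symbols were matched for 46488 of 47069 genes. Depth was 13.3 to 31.3 M fragments (M, mega), so 1 read per kilobase is worth 0.0320 to 0.0750 FPKM. It was read from single-exon genes, of which 90.8% to 93.0% of values came out whole within a tolerance of 0.01. Reads of amplified cDNA carry no molecular identifiers here and are not independent molecules.

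The 12273 genes that reached 1 FPKM in 4 or more of 8 libraries were fitted as log2(FPKM + 1) in limma 3.58.1 under R 4.3.3, on terms for population and for table, with a variance trend and two-sided Benjamini-Hochberg adjusted p under 0.05. The fit was tested on simulated data. All 37 genes are named. Of each wider list up to 4 called genes with the smallest p are named, and values per library are given for called genes, those without overlap within either table and others chosen after their values were seen. The genes and lists were chosen with earlier results of these data known. Alternatives were another pseudocount, other filters, no table term, no trend, a common median, the replicate block and leaving out libraries. Leaving out both libraries of number 1 or of number 2 was chosen after seeing the data.

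Deviations from the population mean correlated between same-numbered libraries over genes, at r of 0.62, 0.89, 0.53 and 0.54 for numbers 1 to 4. Every r was over 0.1, so the block is reported beside the results, though nothing in the labels pairs the samples. Ebi3-Treg 1 to 4 against the other number of the same table gave -0.27, -0.02, 0.56 and 0.61. Relative to table means r was 0.85 for numbers 1 and 2 and -0.08 for 3 and 4. The data thus do not pair 3 and 4 within their table.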

Additional observations from a re-analysis of the deposited data

Results flagged for a closer look

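Of 74 sets of 4 libraries (37 genes in each population), 7 held 1 library far from its other 3 by Dixon's criterion, where chance gives about 1 in 20. Of these values 5 belong to libraries numbered 2. Nsdhl was high in Ebi3-Treg 2 at 23.9 FPKM. Acly was low in Ebi3-Treg 2 at 76.2 FPKM, as was Fads1 in Ebi3-Treg 2 at 3.54 FPKM. Lss was low in Blimp1-Treg 2 at 2.80 FPKM, as was Srebf1 in Blimp1-Treg 2 at 34.5 FPKM. Scd1 was high in Ebi3-Treg 1 at 4.98 FPKM and in Blimp1-Treg 1 at 3.65 FPKM, the 2 libraries with the highest B cell markers.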

How the results depend on the processing

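Of the 34 genes, 2 were called as reported. The count was 0 with no filter on low values and 0 without the table term (9 and 3 genes at an unadjusted p under 0.05, limma), 17 with the replicate block, 6 without both libraries numbered 1 and 9 without both numbered 2. Leaving out single libraries gave 0 to 1, the 1 being Mvd without Blimp1-Treg 2. Over all genes 772 calls became 420 with no filter, 441 without the table term, 2752 with the block, 1970 without numbers 1, 1962 without numbers 2, and 341 to 771 without single libraries (Ebi3-Treg 3 left out gave 385 calls, Ebi3-Treg 4 gave 370.0, Blimp1-Treg 3 gave 403 and Blimp1-Treg 4 gave 341). The 2 calls within replicates 3 and 4 became 0 without any 1 of their 4 libraries. Within replicates 1 and 2 the block gave 14 in place of 0. For these changes the cause was not tested.

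Signs turned for some genes, whose log2 fold changes as reported ranged from -0.23 (Srebf1) to 0.26 (Fasn). Sc5d had a log2 fold change of -0.050 with a common median and -0.052 without numbers 1, and Acaca of -0.062 without numbers 1. Without single libraries the log2 fold change ranged over -0.30 to 0.11 for Lss, -0.18 to 0.32 for Hsd17b7, -0.10 to 0.12 for Sc5d, -0.59 to 0.067 for Srebf1, -0.29 to 0.39 for Scap, -0.19 to 0.41 for Abcg1, -0.21 to 0.49 for Acaca, -0.33 to 0.66 for Fasn, -0.014 to 0.28 for Fads1, -0.039 to 0.22 for Hadha and -0.11 to 0.078 for Hadhb. Depth limits Fdps, Scd1, Fads2 and Cd36 most.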

Other observations

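Mmab, which encodes an enzyme of cobalamin metabolism and neighbours Mvk in the order of RefSeq genes, was looked up after the values of Mvk were seen. It stood at 10.2, 5.78, 9.20 and 11.1 FPKM in Ebi3-Treg 1 to 4, against 6.02, 4.08, 5.09 and 4.54 FPKM in Blimp1-Treg 1 to 4. Like Mvk it was higher in Ebi3-Treg within every number, as were 28.0% of all genes tested. Unlike Mvk it did not separate all 8 libraries, since Ebi3-Treg 2 lay below Blimp1-Treg 1. No test was run on the pair.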
